A study of Mus musculus with 4 samples.

Results

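RNA methyltransferases and other enzymes that modify RNA bases or ribose were followed through a knock-down of FBL in mouse embryonic stem cells. The set has 46 named genes, chosen by symbol and found on the array through the RefSeq accession that each probe carries. Of the 46 genes, 42 had a probe and 41 were tested, among 19338 genes tested in all. The 19338 include entries without a gene symbol, each counted as a gene under the identifier its probe carries. Among the probes left after flagged spots were removed, none was assigned by accession to Nsun7, Trmt2a, Trmt61b or Adat3, which are not analysed here. Thumpd1 was well above background on 1 of the 4 arrays and was not tested. Each of the 41 tested genes was well above background on all 4 arrays. Fbl itself was left out of the set.

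The FBL knock-down group was 2 samples of embryonic stem cells kept for 2 days without tetracycline (Tc), and the control group was 2 samples of the same Tc-inducible FBL-kd cells kept for 2 days with Tc at 1000 ng/mL. All 4 samples were grown on gelatin with leukaemia inhibitory factor (LIF), and total RNA was labelled with Cy3 and hybridised to 1 array per sample. Both groups therefore carry the knock-down system and differ in the Tc of the medium, so that the presence of Tc and the level of FBL cannot be told apart. The labels do not say whether the cells are 1 clone or whether the samples of a group were separate cultures, so p-values rest on the differences among these 4 samples alone, and those may be technical.

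FBL, fibrillarin, places 2'-O-methyl groups on ribosomal RNA under the guidance of box C/D small nucleolar RNAs. The enzymes described here mostly act without such guides: each recognises its own site in transfer RNA, ribosomal RNA, messenger RNA or mitochondrial RNA. Several work as pairs of a catalytic and a partner subunit, and they shape codon reading, RNA stability and ribosome assembly.

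Between 24480 and 26386 probes per array were well above background, no spot was saturated, and precision is limited by having 2 arrays a group. Levels are log2 processed signals after subtraction of the 75th percentile found on each array, and changes are FBL knock-down minus control on that log2 scale, given with their fitted standard error (SE). The words rose and fell are kept for genes whose adjusted p in limma, a linear model with moderated variances, was under 0.05 after Benjamini-Hochberg adjustment over all genes. The targeted gene Fbl had levels of 5.98 and 5.94 in the FBL knock-down arrays and 8.63 and 8.12 in the control arrays, and fell (log2 change −2.42 ± 0.25 SE with 2 arrays a group, limma adjusted p = 5.01e-04). All 10 embryonic stem cell markers, Pou5f1, Sox2 and Nanog among them, were well above background on every array, and their summed level was 9.80 and 10.19 in the FBL knock-down and 10.07 and 9.79 in the control. Dppa5a made up most of these sums, at 9.19 and 9.74 in the FBL knock-down and 9.45 and 9.02 in the control. Nanog was lower on both knock-down arrays, at 3.545 and 3.377 against 4.293 and 4.282 in the control (limma adjusted p = 0.0609). Zfp42, Esrrb and Tdgf1 were also lower on both, Sox2 and Klf4 were higher on both, and none of the 10 passed. Of the 8 fibroblast markers 4 were above background on both arrays of each group, with summed levels of 1.76 and 1.88 in the FBL knock-down and 2.78 and 2.14 in the control, while Col3a1, Dcn and Postn were above background on none. Thy1 made up most of the fibroblast sums, and Krt18 most of the trophectoderm sums below. Summed levels of endoderm, mesoderm, neural and trophectoderm markers lay between −2.29 and 2.77 in the FBL knock-down and between −1.72 and 2.97 in the control, and Afp and Neurog2 were above background on no array. Single lineage markers passed in both directions, where 6.40% of all genes passed. The endoderm marker Sox7 fell, with levels of −5.40 and −5.35 in the FBL knock-down and −3.22 and −3.22 in the control (limma adjusted p = 5.01e-04), and the trophectoderm marker Elf5 fell (limma adjusted p = 0.0225), above background on 1 of 2 knock-down arrays and on both control arrays. The mesoderm marker Kdr rose, with levels of −2.04 and −2.11 in the FBL knock-down and −3.32 and −3.20 in the control (limma adjusted p = 0.0120), and the trophectoderm marker Gcm1 rose (limma adjusted p = 0.0120), above background on both knock-down arrays and on 0 of 2 control arrays. The knock-down levels of Sox7 lay between the −5.601 and −5.153 of the member Wtap, whose probe was dim on every array. These marker calls were not followed through other ways of processing. The part of these markers in the results was not tested. In such bulk samples, fewer cells of a type and less RNA per cell cannot be told apart. FBL knock-down sample 2 was the only array on slide 2.

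Among the RNA modification enzymes 1 of 41 fell and 0 of 41 rose in limma. That gene was Wtap, a regulatory subunit of the complex that writes N6-methyladenosine on messenger RNA. Over all genes tested 2.58% fell and 3.82% rose, 6.40% in all. At an unadjusted p under 0.05 there were 8 members, 5 lower and 3 higher in the FBL knock-down, or 19.5% of those tested, beside 20.1% of all genes. These 8 were Wtap, Mettl16, Trmt11, Nsun4 and Trmt5 on the lower side and Wdr4, Mrm1 and Trmt61a on the higher side. The median change of the members was −0.14, against −0.06 for all genes. Of the members 26 were lower and 15 higher, beside 10876 lower and 8462 higher over all genes. Knock-down and control values did not overlap for 23 members (56.1%), where the share over all genes was 51.1%. Of these, 17 were lower and 6 higher in the FBL knock-down, beside 30.6% of all genes separate on the lower and 20.5% on the higher side.

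**Figure D1:**
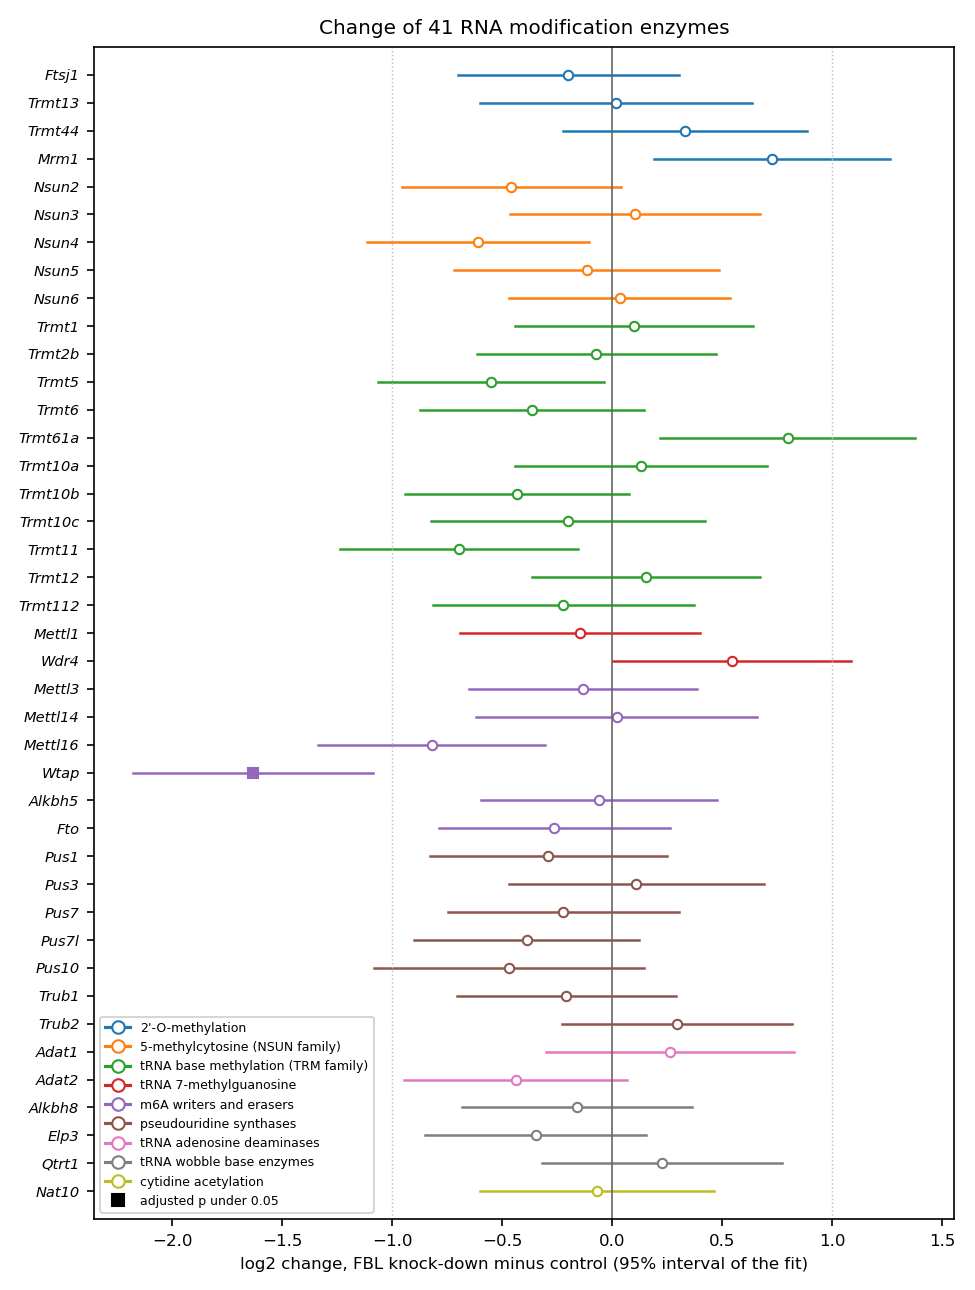
Log2 change of each of the 41 tested members, FBL knock-down minus control, with the 95% interval of the fit as a horizontal line and colours for the role of the enzyme. The filled square is Wtap at −1.63, the 1 member past the threshold, and dotted lines mark a change of 2-fold in either direction.

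The fit also bounds the changes that were not called. The 95% interval lay within a 2-fold change in either direction for 32 of the 41 members (78.0%), beside 70.5% of all genes. The other 9 intervals reached past 2-fold, those of Wtap, Mettl16, Trmt11, Nsun4, Trmt5 and Pus10 on the lower side and those of Trmt61a, Mrm1 and Wdr4 on the higher side. Wtap was the only member whose estimated change was 2-fold or more (2.44% of members, beside 6.86% of all genes). Among the changes of all genes, Wtap lay at percentile 0.81, Mettl16 at 4.71, Trmt11 at 6.76 and Nsun4 at 8.89. On the higher side Mrm1 lay at percentile 93.3 and Trmt61a at 94.2, as the histogram of all changes shows.

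**Figure D2:**
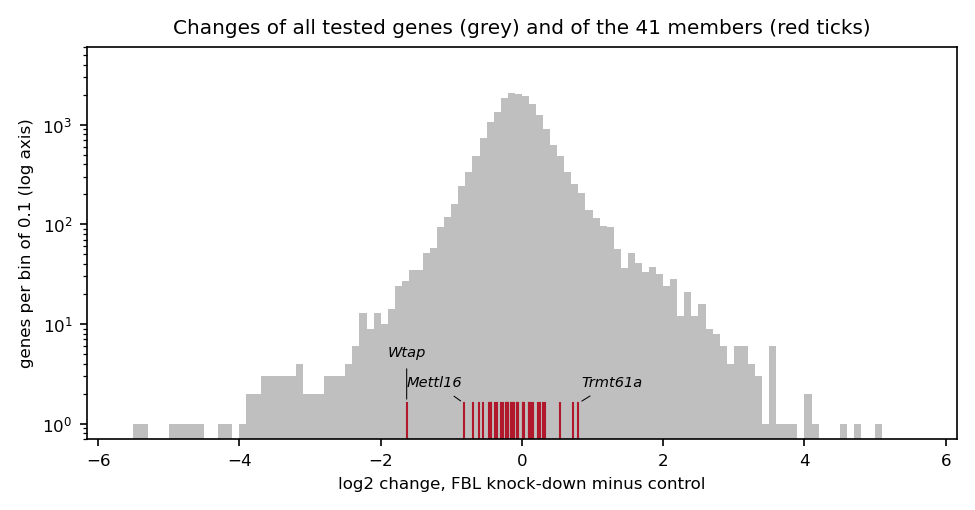
Number of genes per bin of 0.1 in log2 change, FBL knock-down minus control, over all 19338 genes tested (grey, log axis), with a red tick for each of the 41 members. The members lie between −1.63 (Wtap) and 0.80 (Trmt61a), while all genes reach from −5.44 to 5.08.

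Of the 6 enzymes of N6-methyladenosine, all tested, 1 fell and 0 rose, beside 2.58% of all genes that fell and 3.82% that rose. METTL3 is the catalytic subunit of the writer and METTL14 its RNA-binding partner, WTAP holds this pair in nuclear speckles, METTL16 is a separate methyltransferase for U6 small nuclear RNA and the Mat2a transcript, and ALKBH5 and FTO remove methyl groups from adenosine. Wtap had levels of −5.601 and −5.153 in the FBL knock-down and −3.77 and −3.72 in the control. Both knock-down arrays lay below both control arrays by more than 1 unit, and Wtap fell 3.098-fold (log2 change −1.63 ± 0.24 SE with 2 arrays a group, limma adjusted p = 0.00339). The probe was dim on every array, with processed signals of 13.1 and 14.1 in the FBL knock-down and 40.8 and 60.9 in the control, where the lowest signal that counted as well above background was 8.57 and 10.97 on the knock-down arrays and 12.0 and 12.5 on the control arrays.

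Before any subtraction the median pixel signal of that spot was 43.5 and 51.5 in the FBL knock-down and 83 and 105 in the control, and other ways of removing background gave smaller changes. With normexp background correction from the local background, the change of Wtap was −0.26 (limma adjusted p = 0.677), and −0.51 (limma adjusted p = 0.357) without the added offset of 50, and the call ended in both. It also ended with no filter on dim probes (limma adjusted p = 0.167), where 0 genes passed in all. Wtap passed in the other 12 of 15 alternatives, whose changes lay between −1.86 and −1.41, and its adjusted p ranged from 4.72e-06 to 0.677 over all 15. All 12 start from the same background-subtracted signal, or from the authors' values that nearly all match it. They therefore do not vary the background step and cannot test it. The slide as a block and leaving out FBL knock-down 2 are also the same fit. Of the 2063 genes with a mean level within 0.5 of that of Wtap, 3.44% fell. Wtap is read by 1 probe, which carries 1 of the 4 transcripts that RefSeq lists for it.

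Mettl16 had levels of 4.18 and 3.90 in the FBL knock-down and 4.84 and 4.88 in the control. The groups were separate, but its log2 change of −0.82 ± 0.23 SE missed the threshold (2 arrays a group, limma adjusted p = 0.0682), with a 95% interval from −1.34 to −0.30. It passed in 4 of 15 alternatives: normexp with the offset (limma adjusted p = 0.00741), the filter for signal on all arrays (0.0361), trend and robust (0.00464) and without control 1 (0.0406). Mettl3 had levels of 3.39 and 3.30 in the FBL knock-down and 3.62 and 3.34 in the control, and the groups overlapped (log2 change −0.13, interval −0.65 to 0.39). Mettl14 had levels of −0.32 and −0.10 in the FBL knock-down, which lay between the −0.61 and 0.16 of the control arrays (log2 change 0.02, interval −0.62 to 0.66). The changes of the partners Mettl3, Mettl14 and Wtap therefore stand side by side at −0.13, 0.02 and −1.63, and the difference between them was not tested. For the demethylases the log2 change was −0.06 for Alkbh5 and −0.26 for Fto, and the 2 probes of Fto both read −0.26.

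**Figure D3:**
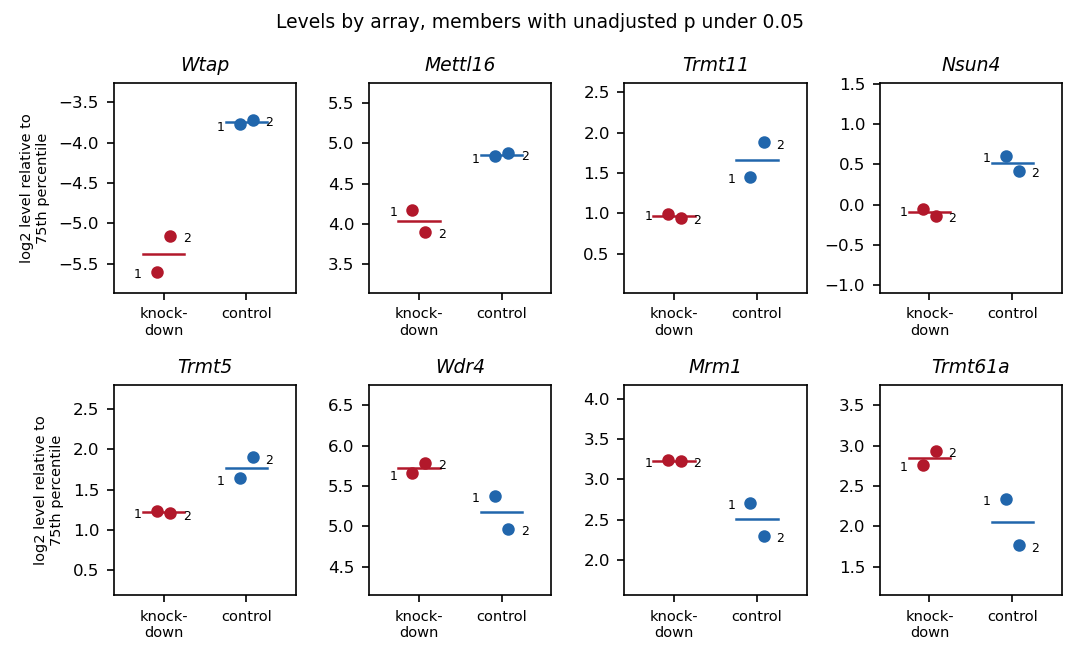
Log2 level, scaled to the 75th percentile on each array, for the 8 members with an unadjusted p under 0.05, with 1 point per array (numbered by replicate), a bar for the group mean, and FBL knock-down left of control. The control arrays of Trmt61a, at 2.34 and 1.76, lie further apart than its knock-down arrays, at 2.76 and 2.93.

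The promoters of the gene that fell and of the members with the next largest changes in each direction show the sequence next to these genes. They are the 250 bases before the annotated start, from RefSeq on GRCm38.p6, 5′ to 3′ on the strand of the gene. Capitals mark matches on either strand to any of 7 motifs: the E-box CACGTG, the cyclic AMP response element core TGACGT, the ATF4 element TGATGNAA, the ETS site CCGGAAG, the CCAAT box CCAAT, the GC box GGGCGG and the TATA box TATAAA. No listed motif contains another.
Wtap (chr17:12992544-12992793, minus strand, 1 of 3 windows listed): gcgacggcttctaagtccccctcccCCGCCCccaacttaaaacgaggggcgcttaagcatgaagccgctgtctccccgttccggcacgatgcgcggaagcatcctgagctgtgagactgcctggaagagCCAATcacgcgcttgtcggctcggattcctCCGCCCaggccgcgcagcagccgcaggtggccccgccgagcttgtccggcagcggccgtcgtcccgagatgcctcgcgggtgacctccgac
Mettl16 (chr11:74770613-74770862, plus strand): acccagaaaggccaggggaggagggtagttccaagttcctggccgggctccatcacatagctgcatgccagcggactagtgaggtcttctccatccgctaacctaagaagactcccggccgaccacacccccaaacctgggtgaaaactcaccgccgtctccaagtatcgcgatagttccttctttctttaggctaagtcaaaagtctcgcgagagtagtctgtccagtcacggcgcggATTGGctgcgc
Trmt61a (chr12:111677855-111678104, plus strand): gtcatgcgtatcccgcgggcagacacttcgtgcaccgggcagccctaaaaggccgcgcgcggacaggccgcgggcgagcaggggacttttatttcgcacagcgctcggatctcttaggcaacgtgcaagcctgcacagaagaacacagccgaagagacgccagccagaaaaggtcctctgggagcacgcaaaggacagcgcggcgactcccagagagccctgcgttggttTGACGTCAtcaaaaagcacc

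The Wtap window held a GC box at 225 and 91 bases before the start and a CCAAT box at 121. Another listed Wtap window, at chr17:12992260-12992509, held GC boxes at 121, 36 and 11 bases before its start and no CCAAT box, and the third, at chr17:12992540-12992789, held the same matches as the printed one, 4 bases further from its start. The Mettl16 window held 1 CCAAT box, 11 bases before the start. The Trmt61a window held the response element core on both strands, at 20 and 18 bases before the start, which overlap in 1 palindrome. Promoters were listed for 39 of the 46 members. The response element core was in the windows of 9 members (23.1%), beside 7.29% of 27025 genes, and the ETS site was in those of 9 members (23.1%), beside 7.83%. The E-box was in 4 members (10.3%, against 6.86% of genes), the ATF4 element in 1 (2.56%, against 3.91%), the CCAAT box in 14 (35.9%, against 37.5%), the GC box in 17 (43.6%, against 35.4%) and the TATA box in 1 (2.56%, against 14.3%). The 27025 genes were not filtered for expression, and these matches are descriptions of letters in the window only.

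The TRM family was the largest group, with 11 of 13 tested and none past the threshold in limma, beside 6.40% of all genes. At an unadjusted p under 0.05 there were 3 (27.3%), beside 20.1% of all genes. The group holds enzymes that methylate tRNA bases, partner subunits, and Trmt12 of the wybutosine pathway. Trmt61a encodes the catalytic subunit of the tRNA 1-methyladenosine enzyme and had levels of 2.76 and 2.93 in the FBL knock-down and 2.34 and 1.76 in the control. It was higher on both knock-down arrays, with a log2 change of 0.80 ± 0.26 SE that missed the threshold (2 arrays a group, limma adjusted p = 0.113), and its change was 0.51 without control 2 and 1.08 without control 1. Trmt61a passed in 3 of 15 alternatives: normexp with the offset (limma adjusted p = 0.0118), trend and robust (0.00697) and without control 1 (0.0214). Trmt6, the RNA-binding partner of TRMT61A, had levels of 1.23 and 1.11 in the FBL knock-down and 1.43 and 1.64 in the control, with a log2 change of −0.36 at this probe and −0.23 at its other probe. The 2 subunits of this complex thus had estimates on opposite sides of 0, with 95% intervals of 0.22 to 1.38 for Trmt61a and −0.88 to 0.15 for Trmt6, and the difference between the genes was not tested.

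Trmt11, the catalytic subunit of the tRNA 2-methylguanosine enzyme, had levels of 0.996 and 0.943 in the FBL knock-down and 1.45 and 1.88 in the control. Its log2 change was −0.70 ± 0.24 SE (2 arrays a group, limma adjusted p = 0.137), and it passed in 3 of 15 alternatives, namely normexp with the offset, trend and robust, and without control 1. Its partner Trmt112, a small protein that activates several methyltransferases, had levels of 4.90 and 5.02 in the FBL knock-down, inside the 5.50 and 4.86 of the control (log2 change −0.22). Trmt5, which methylates the guanosine next to the anticodon, had levels of 1.231 and 1.204 in the FBL knock-down and 1.64 and 1.90 in the control (log2 change −0.55, limma adjusted p = 0.214), and it passed in 1 of 15 alternatives, without control 1 (−0.68, limma adjusted p = 0.0350). Trmt1, which makes dimethylguanosine, had levels of 5.07 and 5.17 in the FBL knock-down between the 5.23 and 4.81 of the control (log2 change 0.10). The 3 Trmt10 paralogs, named for a tRNA guanosine methyltransferase of yeast, had 95% intervals that overlapped, and no difference between them was tested. Trmt10a had a log2 change of 0.13, Trmt10b of −0.43 and Trmt10c, also a subunit of mitochondrial RNase P, of −0.20. Among these paralogs, groups did not overlap for Trmt10b alone. When 1 array was left out, Trmt10a ranged from −0.14 to 0.41 and Trmt10c from −0.57 to 0.16. Trmt2b, the mitochondrial 5-methyluridine enzyme, had a change of −0.07 and Trmt12, of the wybutosine pathway, one of 0.15.

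The 7-methylguanosine complex of tRNA has METTL1 as its enzyme and WDR4 as its scaffold. Wdr4 had levels of 5.66 and 5.79 in the FBL knock-down and 5.38 and 4.97 in the control, with a log2 change of 0.55 ± 0.24 SE (2 arrays a group, limma adjusted p = 0.246). Mettl1 had levels of −0.09 and −0.34 in the FBL knock-down and 0.12 and −0.26 in the control, which overlapped (log2 change −0.14). The 95% intervals overlapped, from −0.69 to 0.40 for Mettl1 and from 0.0044 to 1.09 for Wdr4, and the difference between the genes was not tested. Mettl1 was at 0.0452 without control 1, on the same side of 0 as Wdr4. That was the only 1 of 15 alternatives above 0, and Mettl1 was at −0.33 without control 2. Wdr4 passed in 1 of 15 alternatives, without control 1 (log2 change 0.75, limma adjusted p = 0.0340).

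The 5-methylcytosine enzymes of the NSUN family had 5 of 6 members tested and none past the threshold in limma, beside 6.40% of all genes. At an unadjusted p under 0.05 there was 1 (20%), beside 20.1% of all genes. Nsun4, which methylates mitochondrial small-subunit rRNA, had levels of −0.06 and −0.13 in the FBL knock-down and 0.60 and 0.42 in the control, with a log2 change of −0.61 ± 0.23 SE (2 arrays a group, limma adjusted p = 0.163) and −0.52 at its other probe. It passed in 1 of 15 alternatives, without control 2 (log2 change −0.70, limma adjusted p = 0.0432). Nsun2, which methylates many tRNAs, had levels of 5.37 and 5.41 in the FBL knock-down and 5.87 and 5.83 in the control, with a log2 change of −0.46 (limma adjusted p = 0.290) and −0.36 at its other probe. Both of these genes had separate groups. Nsun5, which methylates cytosolic large-subunit rRNA and so shares its substrate with FBL, had levels of 2.43 and 2.58 in the FBL knock-down, within the 2.95 and 2.29 of the control (log2 change −0.12). Nsun3, for the wobble cytidine of mitochondrial methionine tRNA, had a change of 0.10. Nsun6, a tRNA and mRNA methyltransferase, was the only member whose tested probes differed in sign, with changes of −0.75, 0.03 and 0.19 at 3 probes, so its value of 0.03 depends on the probe chosen.

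The 4 members that make 2'-O-methyl groups, the modification FBL itself makes, had no call in limma, beside 6.40% of all genes. At an unadjusted p under 0.05 there was 1 (25%), beside 20.1% of all genes. Mrm1, which methylates mitochondrial large-subunit rRNA, had levels of 3.23 and 3.22 in the FBL knock-down and 2.70 and 2.30 in the control. It was higher on both knock-down arrays, with a log2 change of 0.73 ± 0.24 SE (2 arrays a group, limma adjusted p = 0.117), and it passed with trend and robust (0.0153) and without control 1 (0.0221), the 2 of 15 alternatives in which it did. Ftsj1, a methyltransferase of the tRNA anticodon loop, had levels of 3.09 and 3.04 in the FBL knock-down and 3.34 and 3.18 in the control (log2 change −0.20). Trmt44 and Trmt13, named for yeast tRNA 2'-O-methyltransferases, had changes of 0.33 and 0.02. Trmt44 was at 0.0823 without control 2 and at 0.58 without control 1, where it passed (limma adjusted p = 0.0457). The levels of Trmt13 in the FBL knock-down, −1.20 and −0.97, lay between its control levels of −1.45 and −0.75.

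Pseudouridine synthases turn uridine into its isomer without a guide RNA, in contrast to the box H/ACA particles. All 7 were tested, none passed the threshold in limma and 0 had an unadjusted p under 0.05, beside 6.40% and 20.1% of all genes. Groups did not overlap for 6 of 7, as for 51.1% of all genes. Of these, 5 were lower and 1 higher, and of all genes 30.6% did not overlap on the lower and 20.5% on the higher side. Pus10, for the T-loop of tRNA, had levels of 0.997 and 1.197 in the FBL knock-down and 1.22 and 1.91 in the control, with a log2 change of −0.47 and −0.68 at its other probe. Its change was −0.13 without control 2 and −0.81 without control 1, where it passed (limma adjusted p = 0.0349). Trub2, a mitochondrial synthase, had levels of 6.30 and 6.36 in the FBL knock-down and 6.20 and 5.87 in the control (log2 change 0.30, and 0.57 at its other probe). Pus1, Pus7, Pus7l and Trub1 had changes between −0.39 and −0.21, and Pus3 had one of 0.11. At the other probe the change was −0.08 for Pus1, −0.25 for Pus7, −0.40 for Trub1 and 0.46 for Pus3.

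None of the 6 tested enzymes of deamination, wobble bases and acetylation passed in limma, beside 6.40% of all genes. At an unadjusted p under 0.05 there were 0, beside 20.1% of all genes. Adat2, the catalytic subunit of the deaminase that makes wobble inosine, had levels of 3.34 and 3.19 in the FBL knock-down and 3.77 and 3.63 in the control (log2 change −0.44, limma adjusted p = 0.324). Adat1, which deaminates adenosine beside the anticodon of alanine tRNA, had a change of 0.26, and 0.29 at its other probe. Elp3, the catalytic subunit of Elongator, which modifies wobble uridine, had levels of 3.45 and 3.47 in the FBL knock-down and 3.88 and 3.73 in the control (log2 change −0.35, limma adjusted p = 0.444). Alkbh8, which completes the wobble uridine modification, had a change of −0.16. Qtrt1, which inserts queuine into tRNA, had levels of 4.91 and 5.13 in the FBL knock-down and 4.990 and 4.599 in the control, which overlapped (log2 change 0.23). Nat10, the cytidine acetyltransferase of small-subunit rRNA and tRNA, had levels of 3.03 and 2.98 in the FBL knock-down, inside the 3.26 and 2.89 of the control (log2 change −0.07, interval −0.60 to 0.46). Thumpd1, the adaptor of NAT10 for tRNA, had processed signals of 1.79 and 3.81 in the FBL knock-down and 33.1 and 2.63 in the control, and only that of control 1 was well above background.

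The 6 tested members listed as mitochondrial (Nsun3, Nsun4, Trmt2b, Trmt10c, Mrm1 and Trub2) had changes from −0.61 to 0.73 with a median of 0.02. The other 35, which can include enzymes that act in mitochondria as well as elsewhere, had a median of −0.16. The 2 medians depend on this assignment, and their difference was not tested. Among the 15 members with 2 or more tested probes, 14 had the same sign at each, and the median gap between the lowest and highest probe was 0.10. The arrays of a group differed by more than 0.5 for 0 of 41 members in the FBL knock-down, and for 11 of 41 in the control, where the shares over all genes were 6.86% and 33.9%. Mettl14 had the largest of these gaps, 0.77 between the control arrays.

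A wider list of other RNA modification genes had 86 of 102 members tested. It covers further rRNA and tRNA enzymes, subunits of the methyladenosine writer and its readers, cap methyltransferases and RNA editing enzymes. In limma 1 of the 86 rose and 0 fell, beside 3.82% of all genes that rose and 2.58% that fell. At an unadjusted p under 0.05 there were 4 lower and 2 higher, or 6.98%, beside 20.1% of all genes, and the median was −0.15, against −0.06 for all genes. The gene that rose was Lage3, a subunit of the KEOPS complex, which makes threonylcarbamoyladenosine in tRNA. Lage3 had levels of 3.57 and 3.60 in the FBL knock-down and 2.74 and 2.37 in the control, and rose 2.04-fold (log2 change 1.03 ± 0.24 SE with 2 arrays a group, limma adjusted p = 0.0304). Its call ended within slide 1 (limma adjusted p = 0.419), without FBL knock-down 1 (0.285), with no filter on dim probes (0.341) and with normexp without offset (0.0666), with changes between 0.90 and 1.05 in these. Igf2bp2, a reader of methylated mRNA, had the largest estimate on the lower side at −0.86 (limma adjusted p = 0.0588).

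**Figure D4:**
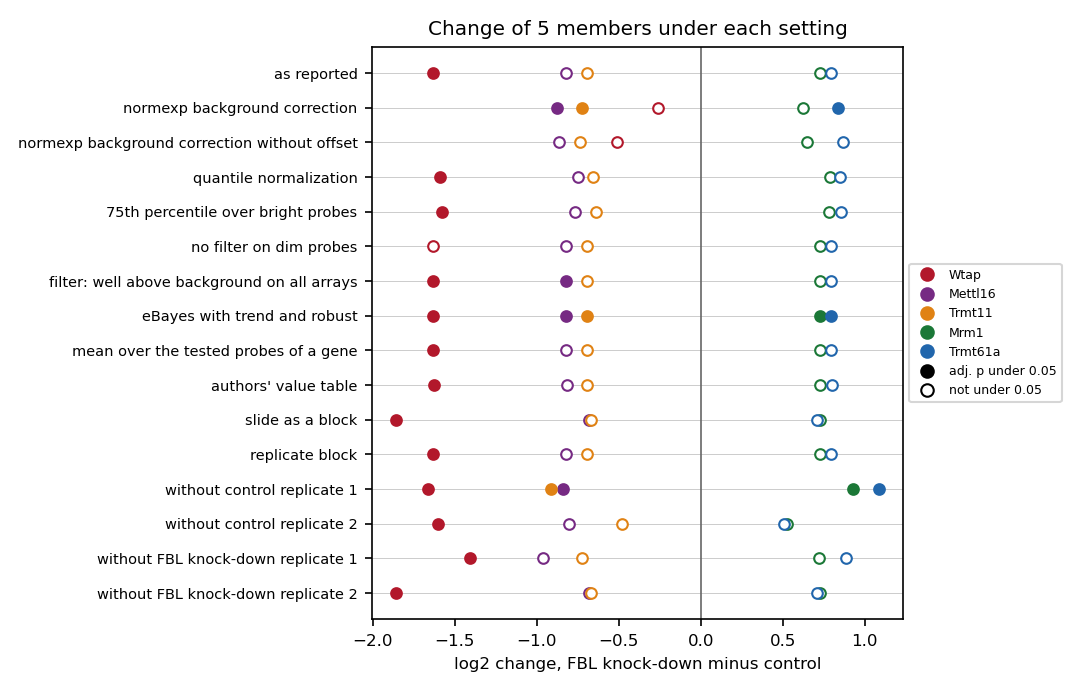
Log2 change, FBL knock-down minus control, of the 5 members with the largest absolute changes, as reported and under each of 15 other settings, with filled points for an adjusted p under 0.05. Wtap moves from −1.63 to −0.26 under normexp background correction, while Mettl16, Trmt11, Mrm1 and Trmt61a keep their side of 0 in all settings shown.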

How the data were processed

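Per the labels, 4 samples of mouse embryonic stem cells were measured on 1-colour Agilent arrays. Per the file headers and the submitters' processing notes, Agilent Feature Extraction 10.7.3.1 produced the spot values, and the deposited processed signal is an intensity after background subtraction and detrending, not scaled between arrays. The authors' deposited value table holds log2 values, 99.8% of which matched the log2 processed signal to within 0.01 once a constant was taken off each array. Which software made it is not known from these sources. Its column medians were −3.94 and −3.91 for the FBL knock-down and −3.85 and −3.98 for the control. It was used as an alternative.

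Control spots and 96 to 138 outlier-flagged spots per array were left out, and 50 probes were dropped for such flags before probes were named. Spots of a probe were averaged as log2 values and each array's 75th percentile was subtracted. A probe was kept when both arrays of 1 group or the other were well above background, and the probe with the highest mean level stood for its gene. The files carry no gene names: 24350 probes were named by accession through the RefSeq table of GRCm38.p6 and 16774 were not. The named probes covered 17008 genes with a symbol before the filter. Unnamed probes stayed in the tests under their own identifiers, so the shares over all genes include them. The array design refers to another build. Groups were compared with limma 3.58.1 in R 4.3.3 (lmFit, eBayes, two-sided, Benjamini-Hochberg). Scripts were tested on simulated data.

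All members are named, with values on each array for those called and for the largest change and the brightest probe of each role. Members, lists and motifs were chosen with earlier results of these data known. The alternative of normexp without offset was added after seeing the data. The files hold median but not mean spot signals, so normexp used the median.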

Additional observations from a re-analysis of the deposited data

Results flagged for a closer look

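A second probe of Alkbh8, which was not tested, had a processed signal of 189.35 on the array of FBL knock-down 1 and was well above background there alone. Its signal was 2.29 on FBL knock-down 2 and 4.05 and 6.43 on the controls. The tested probe of Alkbh8 had log2 levels of −2.67 and −2.67 in the FBL knock-down and −2.68 and −2.34 in the control. This signal was picked out because it lies outside the tested values and above both controls.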

How the results depend on the processing

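All genes gave 739 rising and 499 falling as reported. The counts were 630 and 382 with normexp, 465 and 181 with normexp without offset, 0 and 0 with no filter (2967 with an unadjusted p under 0.05), 1168 and 982 with trend and robust, 380 and 195 with the slide as a block, and 195 to 1801 falling and 380 to 2379 rising when 1 array was left out. With the replicate block they were 958 and 788. Samples with the same number did not deviate together (correlation 0.003 for FBL knock-down 1 with control 1), so the numbers were not taken as pairs, and the block left the calls among the members as reported, Wtap at −1.63 (limma adjusted p = 4.72e-06).

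Members falling were 2 with normexp, 0 without its offset, 0 with no filter, 2 with the filter for all arrays, 3 with trend and robust and 1 to 5 when 1 array was left out, the most without control 1. Members rising were 1 with normexp, 2 with trend and robust and 0 to 4 when 1 array was left out, the most without control 1. The wider list had 0 rising with no filter, with the slide as a block and with normexp without offset, 2 with trend and robust and 0 to 8 when 1 array was left out. It had 1 falling with normexp, 1 with the filter for all arrays, 2 with trend and robust and 0 to 4 when 1 array was left out. The members' median stayed between −0.24 and −0.09. Fbl passed in 14 of 15 alternatives and missed with no filter (−2.42, limma adjusted p = 0.108).

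Estimates near 0 changed sign. With normexp Trmt13 was at −0.0198, Trmt2b at 0.20, Trmt12 at −0.0062 and Alkbh8 at 0.0598, and without the offset these were −0.0239, 0.23, −0.0099 and 0.0484. Alkbh5 was at 0.0035 with quantile normalization, and Nsun6 at −0.18 with the mean over probes. With the slide as a block Trmt13 was at −0.10, Trmt2b at 0.12 and Mettl14 at −0.0899. When 1 array was left out, changes ranged from −0.33 to 0.37 for Trmt13, −0.18 to 0.38 for Nsun3, −0.45 to 0.22 for Nsun5, −0.0403 to 0.11 for Nsun6, −0.11 to 0.31 for Trmt1, −0.26 to 0.12 for Trmt2b, −0.14 to 0.41 for Trmt10a, −0.57 to 0.16 for Trmt10c, −0.54 to 0.10 for Trmt112, −0.33 to 0.0452 for Mettl1, −0.27 to 0.0092 for Mettl3, −0.37 to 0.41 for Mettl14, −0.26 to 0.14 for Alkbh5, −0.16 to 0.39 for Pus3, −0.0009 to 0.53 for Adat1, −0.33 to 0.0111 for Alkbh8 and −0.26 to 0.12 for Nat10. The cause was not tested. Fits without a control array leave that group 1 array, which is assumed to vary like the knock-down pair. With the slide as a block, which equals leaving out FBL knock-down 2, without FBL knock-down 1, with the replicate block and with normexp with its offset, the prior had infinite degrees of freedom, so every gene had the same variance and passing rested on the size of the change. In the fit as reported the prior had 7.89 degrees of freedom, beside 2 residual ones. With trend and robust the recorded prior was 244, a value that can differ between genes. At that value a gene's own spread counted for little.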
